A study of Mus musculus with 4 samples.

Results

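Cells of the marrow stroma hold on to their neighbours and to each other through cadherins, and pass small molecules to each other through connexins. This account covers 10 such genes in sorted bone marrow mesenchymal stromal cells (MSCs), 6 cadherins (Cdh1, Cdh2, Cdh5, Cdh11, Cdh13 and Cdh15) and 4 connexins (Gja1, Gja4, Gjb2 and Gjc1). They were taken by gene symbol from the 56980 genes of the deposited count table, and each symbol matched 1 gene. The libraries came from 4 adult male wild-type mice of the C57BL/6J strain, bred in-house, 14 weeks of age, with 1 library per mouse. MSCs were sorted as CD45-, Ter119-, CD31- and Sca1- cells that carried CD51 and PDGFRa, and each library was amplified from a small pool of these cells. All 4 libraries form 1 group, so that no treatments or genotypes were compared and the mouse is the replicate throughout.

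Classical cadherins are single-pass membrane proteins that bind the same cadherin on the next cell in the presence of calcium. Inside the cell they bind catenins, which link the junction to actin. Connexins assemble as hexamers, and a pair of hexamers from adjacent membranes makes a gap junction channel that lets ions and small metabolites through. In bone, N-cadherin, OB-cadherin and the connexin Cx43 are the best known junction proteins of the osteoblast lineage, and stromal Cx43 is also known from work on blood stem cell niches.

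Each library held between 22738604 and 43545349 counts on genes, of which the 10 genes took between 0.232% and 0.265%. Levels are given as TPM, that is counts divided by the merged exon length of a gene and scaled to 1000000 per library, so that genes can be compared with each other. The labelled cell type was checked against its sort antigens. Itgav, the gene of CD51, had 18.1, 14.3, 12.9 and 17.5 TPM in mice 1, 2, 3 and 4, and Pdgfra had 38.4, 48.2, 30.7 and 41.7 TPM. Ptprc, the gene of CD45, had between 0 and 50 counts. Ly6a, which encodes Sca1, had 1, 120, 0 and 144 counts, so it was not absent from the libraries of mice 2 and 4. The osteoblast genes Bglap, Ibsp, Sp7 and Alpl and all 6 listed marrow stromal genes, Cxcl12 and Lepr among them, were above 1 TPM in every mouse. Their levels were far apart. Bglap had 96604, 119827, 55668 and 156730 TPM in mice 1 to 4, where Cxcl12 had 983, 4329, 2224 and 1079 TPM. Lepr had 31.9, 120, 44.5 and 64.8 TPM. Erythroid markers were uneven, with a summed level between 21.1 TPM in mouse 2 and 3907 TPM in mouse 1. The library of mouse 4 stood apart in 1 respect. It held 712 protein-coding genes with at least 10 counts there and at most 2 in each other library, where the libraries of mice 1, 2 and 3 held 335, 207 and 497.

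A median above 1 TPM, the cutoff for expression used in the study, was reached by 5 of the 10 genes. These were Gja1, Cdh15, Cdh11, Cdh2 and Gjc1, in the order of their medians. The same cutoff was passed by 22.9% of the 52125 genes with a length and by 44.2% of the 21922 protein-coding genes, so the count by itself is close to that of protein-coding genes in general. Gja1, Cdh15, Cdh11 and Cdh2 were above 1 TPM in every mouse, as were 30.1% of the protein-coding genes. Cdh5, Gja4 and Gjb2 had 0 counts in every mouse, as did 29.4% of the protein-coding genes. Cdh1 and Cdh13 had counts in 1 mouse each. In bulk libraries such as these, fewer cells that express a gene and less RNA per cell cannot be told apart.

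**Figure D1:**
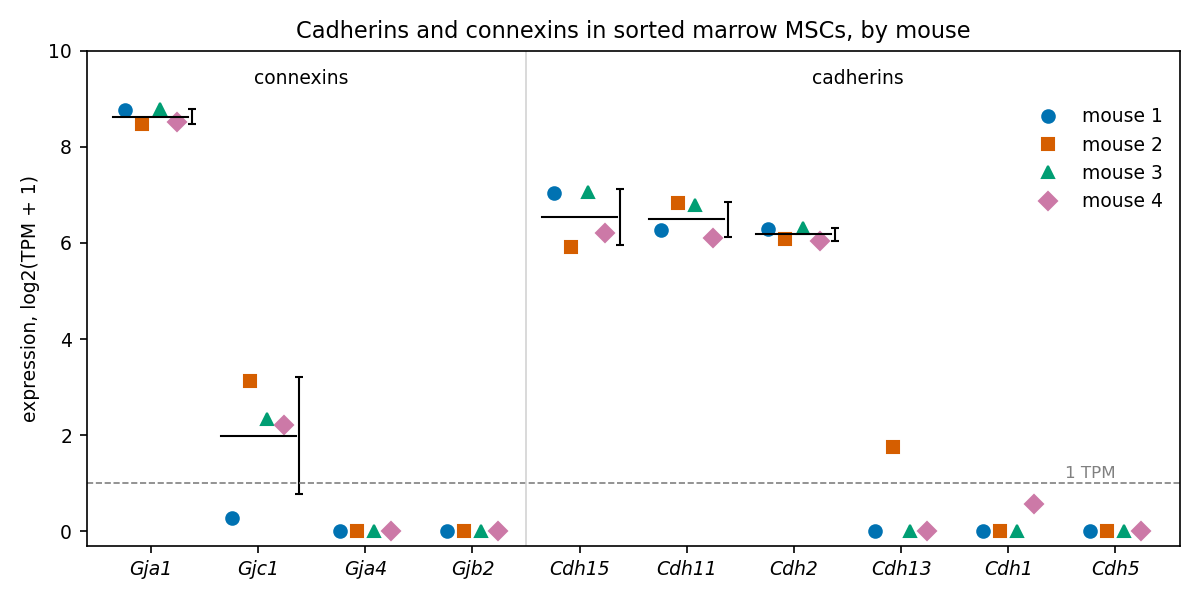
Levels of the 4 connexins and 6 cadherins in the 4 mice, as log2(TPM + 1) on the vertical axis, with 1 symbol per mouse. Lines and bars give the mean and SD over the 4 mice for the genes with at least 3 counts in every library, and the dashed line marks 1 TPM. Gja1 stood above every other gene in all 4 mice, Cdh15, Cdh11 and Cdh2 overlapped, and Gjc1 was low in mouse 1.

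Among the connexins, Gja1 was by far the most abundant. Gja1 (ENSMUSG00000050953, chr10:56377330-56402513, plus strand, GRCm38) encodes Cx43. Its counts were 77871, 40477, 77833 and 38586 in mice 1 to 4, and its levels 432, 355, 439 and 364 TPM. The mean was 397 ± 44.1 TPM (SD, n = 4), a level above that of 98.9% of protein-coding genes, and the highest mouse was 1.24-fold above the lowest. Gjc1 (ENSMUSG00000034520, chr11:102799579-102819700, minus strand) encodes Cx45, which forms channels of lower conductance. It had 18, 432, 348 and 189 counts, or 0.205, 7.76, 4.03 and 3.66 TPM, with a mean of 3.91 ± 3.09 TPM (SD, n = 4). Gjc1 was thus below 1 TPM in mouse 1, the library with the most counts, and above it in the other 3.

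Gja4 (ENSMUSG00000050234, chr4:127311421-127314039, minus strand), which encodes Cx37 of arterial endothelium, had no counts in any mouse. With 3 counts as the smallest detectable value, this allows a level of up to between 0.101 and 0.172 TPM, depending on the library. Gjb2 (ENSMUSG00000046352, chr14:57098600-57104702, minus strand), which encodes Cx26 of epithelia and of the inner ear, had none either, which allows between 0.0709 and 0.121 TPM. These limits cover counting error only. They do not cover rare cells that were missed in a small pool.

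Within each mouse Gja1 exceeded Gjc1 by 6.64 ± 1.32 on the log2(TPM + 1) scale (SD, n = 4, higher in 4 of 4 mice). The ratio of the TPM values was 2110 in mouse 1 and 45.7, 109 and 99.6 in mice 2, 3 and 4. The signs of the per-mouse differences were flipped in all possible ways, an exact permutation test, and gave a two-sided p = 0.125. No smaller p can be had from 4 mice, and with 3 differences tested the Benjamini-Hochberg adjusted value was 0.188. This test therefore cannot pass a threshold of 0.05 here, whatever the size of the difference. Over the 20 connexin genes of the annotation, Gja1 made up 97.9%, 97.8%, 99.0% and 98.2% of the summed connexin TPM in mice 1 to 4, with a mean of 98.2% ± 0.558 (SD, n = 4). The share of Gjc1 was 0.0464%, 2.14%, 0.908% and 0.986%.

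None of the other 16 connexins reached a median of 1 TPM, and 8 of them had 0 counts in every mouse. Of all protein-coding genes, 44.2% had a median above 1 TPM and 29.4% had 0 counts in every mouse. Gja3, a connexin of the lens, had 451 counts in mouse 1, or 8.65 TPM, and 0 in the other 3. It was named because of these values and not by the rule for naming genes. The remainder of the connexin TPM in mouse 1 was thus mostly Gja3 and not Gjc1.

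The promoters of the connexins are shown because Gja1 was among the highest genes of these cells while Gja4 and Gjb2 were at 0. The RefSeq table at hand (GRCm38.p6) held a start site for 4 of the 10 genes, Gja1, Gja4, Gjb2 and Cdh15, and not for Cdh1, Cdh2, Cdh5, Cdh11, Cdh13 and Gjc1. The 250 bases upstream of the start site are given 5′ to 3′ on the strand of the gene, at chr10:56377050-56377299 (plus) for Gja1, chr4:127314040-127314289 (minus) for Gja4 and chr14:57104703-57104952 (minus) for Gjb2. Capitals mark matches to the motifs searched.
Gja1: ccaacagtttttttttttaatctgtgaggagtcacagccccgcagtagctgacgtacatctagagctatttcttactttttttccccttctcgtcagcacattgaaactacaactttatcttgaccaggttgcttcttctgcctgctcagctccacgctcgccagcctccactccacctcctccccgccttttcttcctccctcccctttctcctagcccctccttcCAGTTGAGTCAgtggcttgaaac
Gja4: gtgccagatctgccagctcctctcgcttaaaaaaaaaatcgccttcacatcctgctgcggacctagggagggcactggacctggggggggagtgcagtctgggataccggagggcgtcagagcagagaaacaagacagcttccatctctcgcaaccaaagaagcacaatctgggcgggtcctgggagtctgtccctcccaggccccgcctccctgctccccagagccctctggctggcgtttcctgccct
Gjb2: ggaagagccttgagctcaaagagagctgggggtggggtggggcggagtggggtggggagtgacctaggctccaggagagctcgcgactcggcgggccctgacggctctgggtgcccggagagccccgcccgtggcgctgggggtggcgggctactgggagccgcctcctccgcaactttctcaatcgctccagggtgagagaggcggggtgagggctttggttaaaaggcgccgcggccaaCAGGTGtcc

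The motifs searched on both strands were the TATA box (TATAAA), the AP-1 site (TGANTCA), the E-box (CANNTG) and the RUNX core (TGTGGT). The upstream window of Gja1 held an AP-1 site that begins 19 bases before the start and overlaps an E-box that begins 23 bases before it. An AP-1 site was found in 6.75% of the 32851 promoters in the table and an E-box in 66.2%. The window of Gjb2 held an E-box that begins 9 bases before the start, and that of Gja4 held none of the 4 motifs. The other motifs occurred in 12.4% (TATA box) and 14.0% (RUNX core) of all promoters. In base composition the genes at 0 were the richer in CG pairs, with 18 for Gjb2 and 9 for Gja4, against 6 for Gja1 and a median of 6 over all promoters. The GC content was 69.2%, 61.2% and 50% in that order, against a median of 52.4%. For Cdh15 all 250 bases of the window lie within an annotated exon of Cdh15 itself, so the window is not shown as a promoter. A match to such letters is a description of the sequence and not evidence of a factor binding there.

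Among the cadherins, 3 genes were present at like levels and accounted for nearly all of the cadherin RNA. Cdh15 (ENSMUSG00000031962, chr8:122847966-122867397, plus strand) encodes M-cadherin, best known from skeletal muscle and its satellite cells. It had 7428, 2140, 7418 and 2432 counts in mice 1 to 4, or 129.9, 59.2, 132 and 72.4 TPM, with a mean of 98.4 ± 38.03 TPM (SD, n = 4). Mice 1 and 3 were high and mice 2 and 4 were low, with a 2.23-fold range. Cdh11 (ENSMUSG00000031673, chr8:102632095-102785642, minus strand) encodes OB-cadherin, first described in osteoblasts and common in mesenchyme. Its 11875, 11156, 16824 and 6245 counts correspond to 75.8, 113, 109 and 67.9 TPM, with a mean of 91.4 ± 22.9 TPM (SD, n = 4). Here mice 2 and 3 were high and mice 1 and 4 were low.

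Cdh2 (ENSMUSG00000024304, chr18:16588877-16809246, minus strand) encodes N-cadherin, which is found in neurons, heart and the osteoblast lineage. It had 10962, 6011, 10931 and 5434 counts, or 77.2, 67.0, 78.4 and 65.2 TPM, with a mean of 71.96 ± 6.84 TPM (SD, n = 4). The 4 mice thus lay within 1.203-fold of each other. In median TPM Cdh15, Cdh11 and Cdh2 were above 95.9%, 95.7% and 94.7% of protein-coding genes. Of the 10 genes only Cdh11 shares long near-identical stretches with other genes, in 7 annotated pseudogenes that cover 20.3% of its longest transcript. These pseudogenes had at most 316 counts each in a library, so few reads were assigned to them. Reads that map equally well to several of these genes are in none of the counts, so the level of Cdh11 may be too low. The number of such reads was not measured.

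The order of the 3 cadherins could not be settled. In log2(TPM + 1), Cdh15 differed from Cdh11 by 0.05 ± 0.71 (SD, n = 4, higher in 3 of 4 mice), Cdh11 from Cdh2 by 0.31 ± 0.36 (higher in 3 of 4) and Cdh15 from Cdh2 by 0.36 ± 0.46 (higher in 3 of 4). Each of these differences was smaller than its SD between mice. For Cdh11 and Cdh2, the pair chosen for a test, the per-mouse differences were -0.03, 0.74, 0.47 and 0.06, and the same exact permutation test gave p = 0.25, and 0.25 after adjustment over the 3 tests. Without mouse 2 the mean difference was 0.17. With the longest annotated transcript as the length of each gene, Cdh15 instead differed from Cdh11 by -0.60 ± 0.71 and from Cdh2 by -0.36 ± 0.45 (SD, n = 4 for each). Cdh15 also fell below Cdh11 when mouse 1 (-0.19) or mouse 3 (-0.02) was left out. The step from Gja1 to the cadherins and the step from Cdh2 down to Gjc1 were larger than their spread, at 2.08 ± 0.42 for Gja1 over Cdh15 and 4.20 ± 1.30 for Cdh2 over Gjc1 (SD, n = 4, in 4 of 4 mice each).

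**Figure D2:**
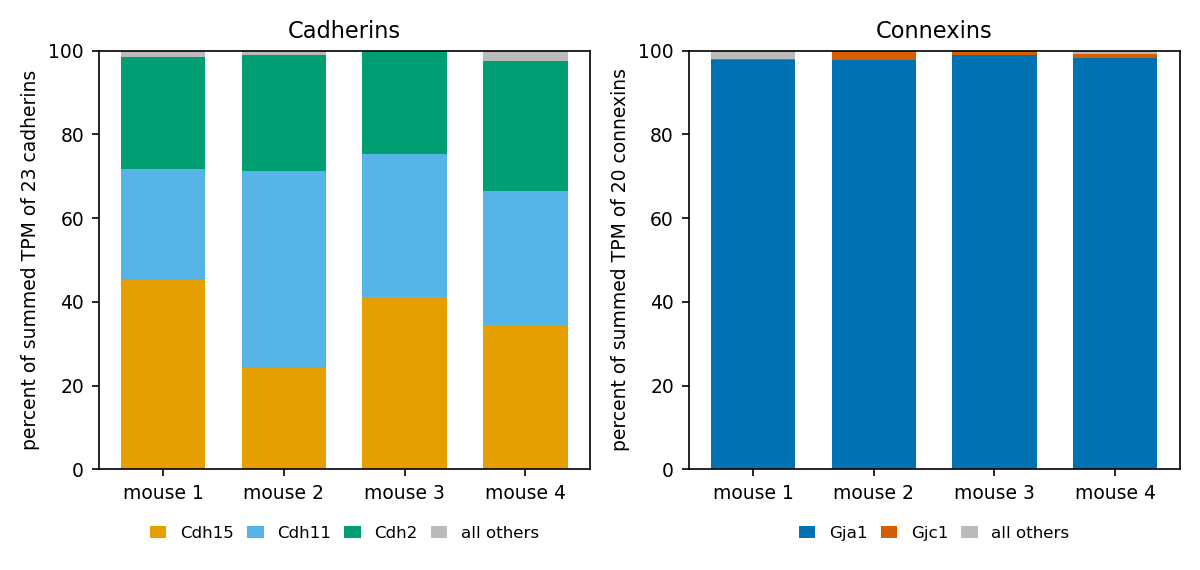
Share of the summed TPM of all 23 cadherins (left) and all 20 connexins (right) taken by each gene, in percent on the vertical axis, with 1 bar per mouse. Gja1 filled at least 97.8% of the connexin bar in each mouse, while the share of Cdh15 ran from 24.5% in mouse 2 to 45.3% in mouse 1.

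Over the 23 cadherin genes, Cdh2, Cdh11 and Cdh15 together made up 98.6%, 99.0%, 99.9% and 97.5% of the summed cadherin TPM. The share of Cdh11 was 26.4%, 46.7%, 34.2% and 32.2% in mice 1 to 4, with a mean of 34.9% ± 8.54 (SD, n = 4). That of Cdh15 was 45.3%, 24.5%, 41.3% and 34.4%, with a mean of 36.4% ± 9.08. That of Cdh2 moved least, with 26.9%, 27.8%, 24.5% and 30.9% and a mean of 27.5% ± 2.66. In TPM over merged exons the largest single cadherin was Cdh15 in mice 1, 3 and 4 and Cdh11 in mouse 2. With the longest transcript as the length, Cdh15 was above Cdh11 in 1 of 4 mice.

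Cdh13 encodes T-cadherin, which lacks a cytoplasmic part and is held in the membrane by a lipid anchor. Cdh13 (ENSMUSG00000031841, chr8:118283733-119324921, plus strand) had 297 counts in mouse 2, or 2.38 TPM, and 0 in the other 3 mice, where 3 counts correspond to between 0.0152 and 0.0258 TPM. Cdh11 exceeded it by 6.06 ± 0.72 in log2(TPM + 1) (SD, n = 4, 4 of 4 mice, exact permutation p = 0.125, adjusted 0.188). This size depends on the pseudocount, since Cdh13 was at 0 in 3 mice, and was 8.65 with a pseudocount of 0.1. In mouse 2, where both genes had counts, the ratio of the TPM values was 47.4. Cdh1 (ENSMUSG00000000303, chr8:106603351-106670246, plus strand), which encodes E-cadherin of epithelia, had 23 counts in mouse 4, or 0.487 TPM, and 0 in the others. Cdh5 (ENSMUSG00000031871, chr8:104101625-104144511, plus strand), which encodes VE-cadherin of endothelial junctions, had 0 counts in all 4 mice, which allows up to between 0.0406 and 0.0691 TPM.

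Markers of the cell types from which these cadherins are best known were read in the same libraries. For endothelium, Kdr, Cldn5 and Tie1 had 0 counts in every mouse, Pecam1, the gene of the CD31 used to exclude cells in the sort, had between 5 and 14 counts, and the 7 markers summed to between 0.0501 and 1.28 TPM. For skeletal muscle, Myod1, Myf5, Pax7, Myog and Ckm had 0 counts in every mouse. Des had 66 counts in mouse 2 and 247 in mouse 3, and the 7 muscle markers summed to between 0.126 and 3.996 TPM. Side by side, these sums were 0.148, 1.58, 3.996 and 0.126 TPM in mice 1 to 4, where Cdh15 had 129.9, 59.2, 132 and 72.4 TPM. Mouse 3 was the highest in both, but mouse 1 came close to it in Cdh15 with a muscle sum of 0.148 TPM. Mouse 2, with a muscle sum of 1.58 TPM, was the lowest in Cdh15. For epithelium, Krt5, Krt8 and Krt18 were at 0 and the 5 markers reached at most 0.441 TPM, in mouse 4, which is also the mouse with the Cdh1 counts. Whether these counts come from another cell type was not tested. Mural markers summed to between 2.08 and 29.6 TPM, the highest in mouse 2, where Rgs5 had 1470 counts, or 29.1 TPM. The other mural markers did not share this peak. Cspg4 was lowest in mouse 2, at 0.558 TPM, and highest in mouse 4, at 7.49 TPM, and Myh11 had 92 counts in mouse 4 only. Acta2 and Mcam were at 0 in all 4 mice. Mouse 2 was also the mouse with Cdh13, and the part of mural cells in that value was not tested.

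The spread between mice differed among the 5 genes above the cutoff. The coefficient of variation (CV, the SD as a percent of the mean) of Cdh2 was 9.50%, and only 1.96% of the 1479 protein-coding genes within a factor of 2 of its mean level had a lower one. Gja1 had a CV of 11.1%, and 18.0% of 384 genes of like level were lower. Cdh11, with 25.02%, and Cdh15, with 38.7%, lay further inside the range, with 32.2% of 1229 and 61.9% of 1158 genes lower. Gjc1 varied by 79.0%, close to the median of 80.0% over the 3759 genes of its level. Counting error alone gave CVs between 0.425% for Gja1 and 6.51% for Gjc1, which leaves out the amplification of small pools and is a lower limit of the technical error. When the libraries were scaled to a common upper quartile, the SD was 3.71 TPM for Cdh2 and 27.6 TPM for Gja1, at means of 72.2 and 398 TPM. This was smaller than with TPM as computed, at 6.84 and 44.1 TPM. With TMM factors the SD was larger instead, at 7.60 TPM for Cdh2 and 47.6 TPM for Gja1. The scaling thus changed the spread in either direction.

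**Figure D3:**
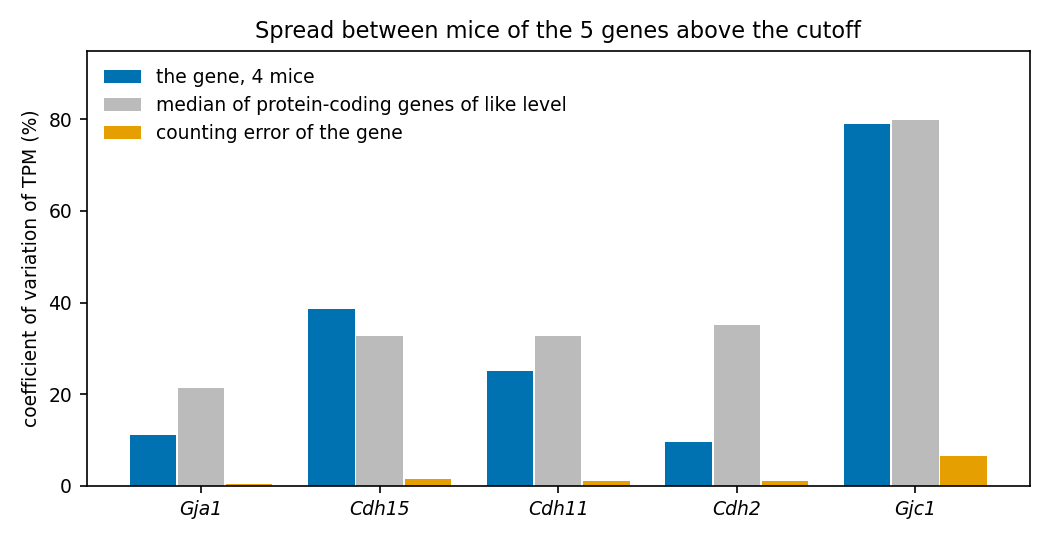
Coefficient of variation of TPM over the 4 mice, in percent, for the 5 genes above the cutoff, beside the median for protein-coding genes within a factor of 2 of the same mean level and beside the value that counting error alone gives. Cdh2 at 9.50% lay far below the 35.1% of genes of its level, while Gjc1 at 79.0% was close to the 80.0% of its own.

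Gja1 and Cdh2 kept an almost fixed proportion. The ratio of their TPM values was 5.59, 5.30, 5.60 and 5.58 in mice 1 to 4, with a mean of 5.52 ± 0.147 (SD, n = 4). The SD of the log2 ratio was 0.04. Among the 3114 protein-coding genes above 10 TPM in every mouse, only 3 (0.0963%) had a smaller SD of their log2 ratio to Gja1, and the median over these genes was 0.43. For Cdh11 the SD was 0.40 and for Cdh15 0.43, close to that median. A ratio within a library does not change with the scaling between libraries. The pair was picked after its values had been seen, among all pairs of the members, and with 4 mice it stands as a description without a test.

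Read as a percent of each gene's own mean, the members differed in which mice were high. Gja1 stood at 109%, 89.3%, 110.5% and 91.6% in mice 1 to 4 and Cdh2 at 107%, 93.1%, 109% and 90.6%. Cdh15 had the same mice high and low with a wider range, at 132%, 60.2%, 134% and 73.6%. Mice 1 and 3 are also those with the deeper libraries, with 43545349 and 42747050 counts against 26050230 and 22738604 in mice 2 and 4, and erythroid markers summed to 3907, 21.1, 1349 and 308 TPM in mice 1 to 4, with the same mice highest. The part of depth and of erythroid RNA in these patterns was not tested. Of the 4 listed osteoblast genes, the transcription factor gene Sp7 stood at 150.2%, 70.0%, 113% and 67.0% and Alpl, the gene of tissue-nonspecific alkaline phosphatase, at 119.9%, 73.8%, 129% and 77.0%. Both were thus high in the mice in which Cdh15 was high. The other two did not share this. Ibsp, the gene of bone sialoprotein, was at 80.02%, 94.0%, 150.1% and 75.9%, and Bglap, the gene of osteocalcin, ran the other way, at 90.1%, 112%, 51.9% and 146%. Cdh11 was at 82.9%, 123%, 119.6% and 74.2%. The niche factor genes Cxcl12, at 45.6%, 201%, 103% and 50.1%, and Kitl, at 23.9%, 180.02%, 118% and 78.0%, were also highest in mouse 2, the mouse in which Cdh11 was highest. So were 3 of the remaining 4 listed marrow stromal genes, Lepr, Foxc1 and Ebf3, while the transcription factor gene Prrx1 was lowest there, at 129.5%, 70.5%, 119.8% and 80.2%, and had the same high mice as Cdh15. In mouse 3, where Cdh11 was also high at 119.6%, Lepr, Foxc1 and Ebf3 were below their means, at 68.1%, 76.7% and 57.1%. With 4 mice no correlation is given.

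**Figure D4:**
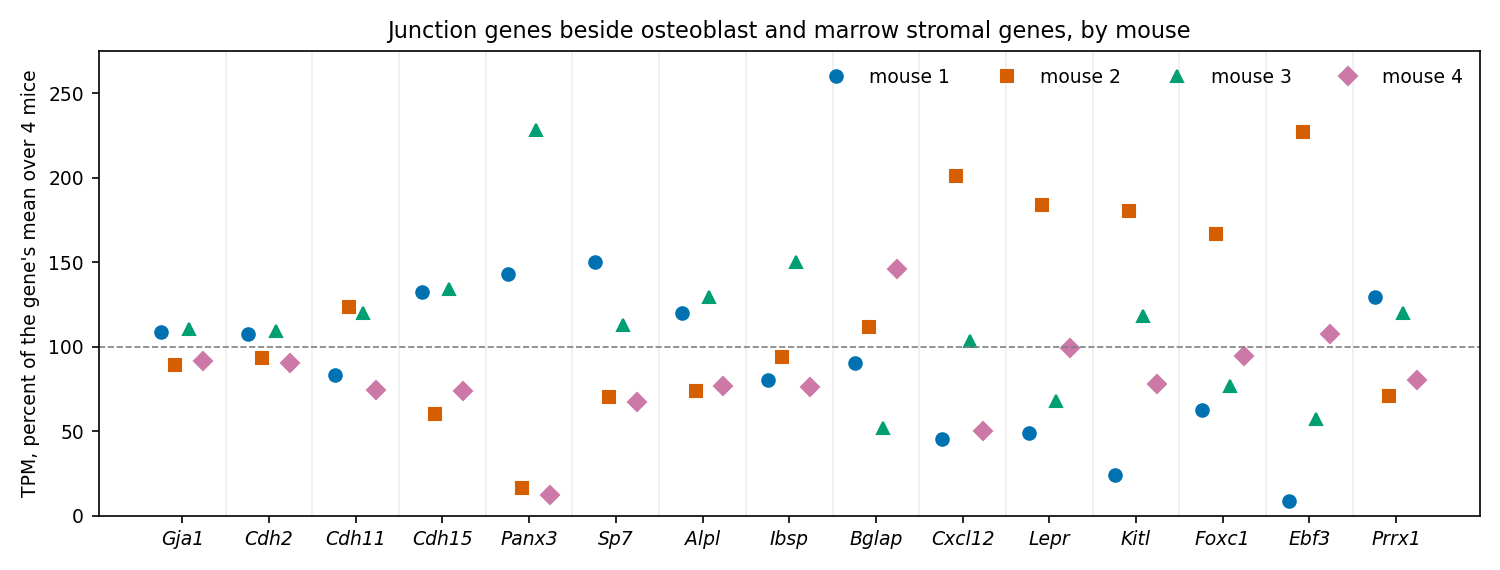
Level of 4 junction genes, the pannexin Panx3, the 4 listed osteoblast genes (Sp7 to Bglap) and the 6 listed marrow stromal genes (Cxcl12 to Prrx1) in each mouse, as a percent of the mean of that gene over the 4 mice (dashed line at 100). Gja1, Cdh2, Cdh15, Panx3, Sp7, Alpl and Prrx1 had mice 1 and 3 above 100 and mice 2 and 4 below it, Bglap had the reverse, and the marrow stromal genes other than Prrx1 were highest in mouse 2.

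The genes nearest in level to Gja1 and to Cdh15, the connexin and the cadherin with the highest median TPM, were found among 21912 protein-coding genes by the mean absolute difference in log2(TPM + 1) over the 4 mice. For Gja1 these were Psmb6 (0.08), Cnbp (0.10), Actg1 (0.11), Rps25 (0.12) and Nedd8 (0.13). For Cdh15 they were Ctsh (0.11), Jkamp (0.12), Nars (0.13), Arf5 (0.14) and Eif4a1 (0.14). Ctsh, which encodes a lysosomal protease, had 128, 59.3, 156 and 81.1 TPM. The measure weighs the level as well as the pattern over mice.

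Of 15 catenins and adaptor genes, the partners of classical cadherins inside the cell, 10 (66.7%) passed the median of 1 TPM, against 44.2% of protein-coding genes, and 9 were above it in every mouse. This difference was not tested. Ctnnb1, which encodes beta-catenin and is used both at junctions and in Wnt signalling, had 119.8, 136, 186 and 124 TPM. The actin crosslinker gene Actn4 had 36.5, 34.5, 53.1 and 26.7 TPM. Ctnna1, which encodes alpha-catenin and ties the complex to actin, had 23.5, 30.0, 24.99 and 38.4 TPM, and Ctnnd1, which encodes p120 catenin and slows the endocytosis of cadherins, had 15.3, 27.3, 15.4 and 22.6 TPM. Of the 15, Ctnnb1 alone reached the range of Cdh2, 65.2 to 78.4 TPM, or exceeded it in any mouse. Among genes for the cleavage of cadherins at the cell surface, the sheddase gene Adam10 had 21.2, 28.3, 32.6 and 28.0 TPM, and Adam9 had 12.6, 33.99, 9.20 and 21.4 TPM, so that both passed in every mouse.

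The counts that follow stand beside the 44.2% of protein-coding genes with a median above 1 TPM and the 29.4% at 0 counts, without a test. Of the 17 cadherins outside the 6 described, none had a median above 1 TPM and 5 had 0 counts throughout. Their summed level was between 0.0604 TPM in mouse 2 and 4.76 TPM in mouse 4. Of 8 desmosomal genes, 5 had 0 counts in every mouse and 1 passed the median of 1 TPM. This was Pkp4, a p120-related armadillo protein gene also found outside desmosomes, with 20.8, 14.2, 10.1 and 8.55 TPM. Among 9 atypical cadherins, 4 (44.4%) passed the cutoff, a share like that of protein-coding genes. The giant cadherin genes Fat1, Fat3 and Fat4 were led by Fat1 with 17.8, 13.8, 27.6 and 11.8 TPM, followed by Fat3 with 16.5, 6.50, 7.49 and 7.92 TPM, while Fat4 lay near the cutoff with a median of 1.07 TPM. Dchs1, the ligand of Fat4, had 2.71, 2.57 and 2.37 TPM in mice 1, 3 and 4 and 0 counts in mouse 2. Of 11 protocadherins, 3 (27.3%) passed, Pcdh18 with 39.6, 14.1, 18.7 and 14.0 TPM, Pcdh7 with 15.7, 13.0, 9.20 and 18.4 TPM and Pcdh19 with 1.27, 3.08, 0.763 and 2.47 TPM.

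Pannexins form membrane channels related in topology to those of connexins but do not normally make gap junctions. Panx3, which is known from osteoblasts and chondrocytes, had 82.2, 9.55, 131 and 7.10 TPM and so spanned a wider range than Gja1. It was high in mice 1 and 3 and low in mice 2 and 4, as Cdh15 was. Panx1, which is widely expressed and releases ATP, had 5.22, 24.1, 2.02 and 0.0642 TPM, and the highest mouse for it was mouse 2. Of the 5 genes listed as partners of connexins, 3 passed the median of 1 TPM. Tjp1, which encodes the scaffold ZO-1 that binds the tail of Cx43, had 4.32, 21.8, 12.3 and 6.38 TPM. Dbn1, the gene of the actin-binding protein drebrin, had 3.29, 16.3, 18.8 and 4.05 TPM, and Cnst, the gene of consortin, which helps to deliver connexins to the membrane, had 2.82, 0.599, 3.28 and 6.41 TPM. Unlike Gja1, whose mice lay within 1.24-fold of each other, Tjp1, Dbn1 and Cnst each differed several-fold between mice. Their mean levels were lower, at 11.2, 10.6 and 3.28 TPM against 397 TPM for Gja1. Spread was wider at low levels, with a median CV of 21.4% for genes at the level of Gja1 and 80.0% at that of Gjc1. The level of Cnst was near that of Gjc1, but no such median was taken near the levels of Tjp1 and Dbn1. Whether the wider spread is particular to these partners was not tested.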

How the data were processed

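RNA-seq libraries of sorted MSCs from 4 mice were used, as 1 group. Per the authors, reads were mapped to GRCm39 by STAR and unique pairs on Ensembl exons were counted, without a strand option, by featureCounts (Subread 1.6.5). The deposited table holds these raw counts, 1 column per mouse, and every value in it is a whole number.

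TPM was computed in Python 3.11.15 (pandas 2.3.3, numpy 2.4.6) from merged exon lengths of GENCODE M21, an annotation of GRCm38 and thus of another build. Lengths were joined by Ensembl identifier, no coordinates were converted, and 4855 genes without a length were left out. Where exons were revised between the builds, the TPM of that gene is too high or too low by the same factor as its length. Gja1 has 10257 bases of merged exons against 3889 in its longest transcript, so its TPM with the latter is higher (819 ± 88.6, SD, n = 4). Members and gene lists were chosen with earlier results of these data known. All 10 members were named, and from each list the genes past the cutoff, up to the 4 highest by median, as well as the 5 genes nearest in level to Gja1 and to Cdh15. Other genes were named after their values were seen. Differences between 2 genes were taken within each mouse in log2(TPM + 1) and tested by flipping their signs in every possible way (an exact permutation test, two-sided). The 3 p-values were adjusted by the Benjamini-Hochberg method. Near-identical transcripts were searched with BLAST 2.17.0 at 95% identity over at least 100 bases. Alternatives were another or no gene length, scaling by TMM factors (edgeR 4.0.16) or to a common upper quartile, other cutoffs and summaries, a minimum of 10 counts, a pseudocount of 0.1 and leaving out each mouse. The scaling to an upper quartile, and the alternatives for the order of levels and for the mean levels, were added after the data had been seen. The code was tested on simulated data. Depth limits cover counting error only, since PCR copies are not independent molecules. A few listed genes, and sums that rest on them, are not reported here. Macrophage libraries were not analysed here.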

Additional observations from a re-analysis of the deposited data

Results flagged for a closer look

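Of 27 values or sums read over the 4 mice, 3 had 1 mouse far from the rest, with a gap to the nearest other mouse that took up most of the whole range, beyond Dixon's critical value at 95%. Chance flags about 1 in 20 such groups if their values are normally distributed, which is 1.35 of 27. TPM values and their sums need not be so, and all come from the same 4 libraries, so the rate is a rough guide. That rate does not apply to Cdh1 and Cdh13, since 3 values at 0 and 1 above it give a gap of the whole range at any size. For Cdh1 the gap was 1 of the range, since mouse 4 had 0.487 TPM and the other 3 had 0. For Cdh13 it was also 1, since mouse 2 had 2.38 TPM and the other 3 had 0. The summed epithelial markers had a gap of 0.925, with 0.441 TPM in mouse 4, all of it from 10 counts of Epcam, against at most 0.0329 TPM elsewhere.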

How the results depend on the processing

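For 11 results, 98 alternatives were run, and 6 turned a direction, all in the order of Cdh15 against Cdh11 or Cdh2. For the 3 tested differences the direction held under each alternative, and the side of the threshold says nothing, since the permutation test cannot pass it with 4 mice or fewer. Cdh11 over Cdh13 was 8.65 with a pseudocount of 0.1 and 7.49 on the CPM scale, and Gja1 over Gjc1 was 7.32 and 7.98. The number of genes with a median above 1 TPM stayed at 5 whichever mouse was left out. With the longest transcript as the length, Gja1 exceeded Cdh15 by 3.47 and Cdh2 by 3.11 in log2(TPM + 1), Cdh15 lay at -0.60 against Cdh11 and -0.36 against Cdh2, and the share of Gja1 among connexins was 99.1%. With no length, on the CPM scale, these values were 3.74, 2.80, -1.39, -0.94 and 99.2%, and the share of Cdh11 among cadherins was 46.7%. CPM also counts the genes that have no length. The causes were not tested. Leaving out each mouse in turn gave between 0.17 and 0.42 for Cdh11 over Cdh2, 5.81 and 6.38 for Cdh11 over Cdh13, 6.03 and 7.08 for Gja1 over Gjc1, 1.92 and 2.20 for Gja1 over Cdh15, -0.19 and 0.38 for Cdh15 over Cdh11 (-0.02 without mouse 3), 0.24 and 0.55 for Cdh15 over Cdh2, 3.59 and 4.61 for Cdh2 over Gjc1, 2.44 and 2.47 for Gja1 over Cdh2, 98.0% and 98.4% for the share of Gja1, and 30.9% and 37.7% for that of Cdh11. Scaling by TMM factors or to a common upper quartile moved the mean level of none of the 7 genes with counts by more than its SD. Lengths come from GRCm38, and pools of few cells limit what 0 counts show.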

Other observations

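Some junction genes below the cutoff had their counts in a single library. Among the 97 members and listed genes, those with 10 or more counts in a single mouse and no more than 2 in any of the others numbered 4 in mouse 1 (Cdh22, Gja10, Gja3 and Tjp3), 1 in mouse 2 (Cdh13), 3 in mouse 3 (Gjc3, Pcdh17 and Pkp2) and 13 in mouse 4. Of all 21922 protein-coding genes, 335, 207, 497 and 712 met the same rule in mice 1 to 4. Mouse 4 thus held the most in both sets, which were not compared by a test. The 13 of mouse 4 included Cdh1 and 5 other cadherins, with 91 counts for Cdh8, 53 for Cdh19, which is known from Schwann cells, 48 for Cdh12, 44 for Cdh16 and 14 for Cdh9. They also included Ctnna2 with 68 counts and Ctnna3 with 97, Pcdh15 with 331, Celsr2, and the connexins Gja5 with 17 and Gjd2 with 11. Over all protein-coding genes such single-library genes had a median genomic span of 28880.5 bases in mouse 4 and 23699, 14416 and 13777 bases in mice 2, 1 and 3, where the 7725 genes with at least 10 counts in every mouse had 25218 bases. The source of these counts was not tested.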
